A study of Mus musculus with 30 samples.

Results

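Haematopoietic stem cells (HSCs) of wild-type mice were compared at 2 years and at 1 year of age, to ask what still changes in these cells late in life. The members were chosen by their labels alone: 4 libraries of wild-type mice aged 2 years and 5 of wild-type mice aged 1 year, 9 of the 30 libraries of the series. The series title places the work in the ageing of HSCs through the microbiome and interleukin-1. Besides wild-type mice it holds mice labelled IL1R1 KO, whose 1-year (4 libraries) and 2-year (5 libraries) groups give a second late change from other libraries, and mice labelled germ free. Wild-type libraries at 2 months (4) are given below as levels only. Per the labels' protocols, 4000 to 5000 sorted cells were lysed per library and cDNA was made by Smart-seq2, which copies polyadenylated RNA along its length and keeps no strand. The labels name neither strain nor sex nor sorting markers. They do not say whether replicates were separate animals, so p-values measure only how far these libraries scatter, which may in part be technical.

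HSCs sit at the top of the blood system and renew all its lineages. In aged mice they are known to grow in number, to make more platelet and myeloid cells and fewer lymphocytes, and to carry more RNA of a set of genes that includes the adhesion molecule Selp and the stress factor Nupr1. Interleukin-1 is an inflammatory cytokine that acts through the receptor encoded by Il1r1, and type I interferons are antiviral cytokines that raise a shared set of genes through factors that include Stat2 and Irf9. Because sorted populations hold few cells, RNA of other blood cells can be carried along, and a rearranged immunoglobulin gene marks the B cell or plasma cell from which it came. In pooled cells such as these, a lower value cannot tell fewer cells of a type from less RNA per cell.

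Values are normalized counts, the authors' gene counts divided by a factor per library. Estimated depth was 32.6 to 56.3 M reads at 1 year and 23.6 to 29.6 M reads at 2 years, so the 2 groups did not overlap in depth, and the part of depth in the differences below was not tested apart from the fits named with them. The 9 libraries held 17937 to 19417 genes above 0. The labelled cell type had its marker Procr, the endothelial protein C receptor used to sort HSCs, which stood at 5407 to 7216 in the 9 libraries. The 2-year library numbered replicate 3 stood apart, with correlations of 0.929 to 0.937 with the other 2-year libraries (across genes), against 0.954 to 0.961 among those others. The median gene had a standard deviation of 0.24 on the log2 scale at 1 year and 0.33 at 2 years, or 0.23 at 2 years without replicate 3.

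Few genes passed the test. Of 16958 genes tested on log2(normalized count + 1) with limma (Benjamini-Hochberg adjusted p under 0.05), 2 were called, which is 0.0118% of all, and both were immunoglobulin variable (V) segments that rose. At an unadjusted p under 0.05 there were 739 genes (4.36%), 385 higher (2.27%) and 354 lower (2.09%) at 2 years. The 2 groups of libraries did not overlap for 273 genes (1.61%), 135 higher (0.796%) and 138 lower (0.814%). The median change over all genes was 0.00 on the log2 scale, and the median size of a change was 0.15. For the 8979 genes with a mean of at least 500 in either group, the 95% interval of the change lay within 1 log2 unit of 0 for 97.6% and within 0.5 for 71.8%. Over all tested genes these shares were 66.3% and 39.7%, so a change of 1 unit in a low gene often could not be told from none.

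**Figure D1:**
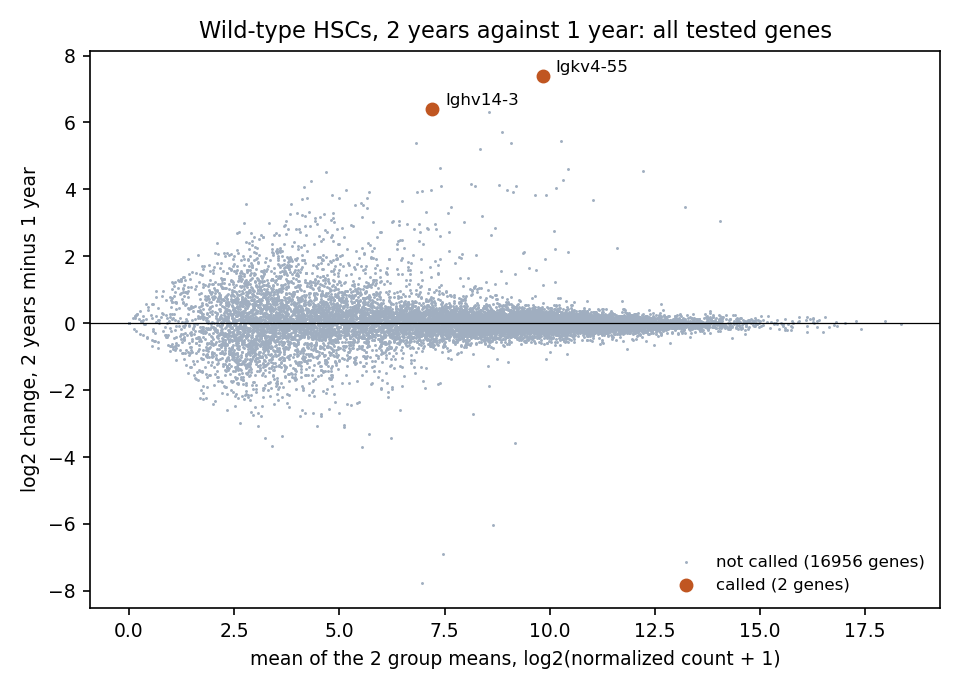
Change from 1 year to 2 years for each of the 16958 tested genes in wild-type HSCs (vertical axis, log2) against its mean level (horizontal axis, log2 of normalized count + 1); each dot is a gene. The 2 called genes, Igkv4-55 and Ighv14-3, lie high on the vertical axis, and the cloud narrows toward 0 as the level increases.

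The 2 called genes are segments from which the variable part of an antibody is put together: Igkv4-55 for the kappa light chain and Ighv14-3 for the heavy chain. They fall outside the rule for named genes, which leaves receptor segments out, and were chosen after their values were seen. V segments form families of near-identical copies between which reads can be split. The last 240 bases of each segment are shown with capitals at the bases that differ from its closest relative of the same family in an alignment without gaps, since these are the letters by which a read can be told apart. Igkv4-55 (ENSMUSG00000096833) lies at chr6:69607275-69607514 on the minus strand of GRCm38 (GENCODE transcripts), within the V exon, and was identical to Igkv4-68 at 229 of 240 bases. Ighv14-3 (ENSMUSG00000095642) lies at chr12:114059845-114060084 on the minus strand, also within its V exon, and was identical to Ighv14-1 at 229 of 240 bases.
Igkv4-55: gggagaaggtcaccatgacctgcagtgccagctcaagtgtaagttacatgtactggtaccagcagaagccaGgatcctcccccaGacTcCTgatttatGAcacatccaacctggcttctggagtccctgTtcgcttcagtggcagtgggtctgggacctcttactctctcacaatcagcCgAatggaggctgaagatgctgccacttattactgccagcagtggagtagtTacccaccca
Ighv14-3: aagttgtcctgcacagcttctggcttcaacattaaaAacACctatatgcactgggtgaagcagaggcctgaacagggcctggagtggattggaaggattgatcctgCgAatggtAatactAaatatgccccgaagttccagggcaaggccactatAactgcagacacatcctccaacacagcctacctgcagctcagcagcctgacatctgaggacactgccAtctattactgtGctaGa

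Igkv4-55 had normalized counts of 5.93, 0, 0, 9.76 and 0 in the 1-year libraries and of 292, 4126, 5.97 and 2920 in the 2-year libraries. The high values came from 3 of the 4 libraries at 2 years, and the fourth, replicate 3, lay within the 1-year range. Its change was 7.39 ± 1.22 (SE) on the log2 scale with a limma adjusted p of 0.0244. Ighv14-3 had 4.24, 0, 1.03, 0 and 6.6 at 1 year and 55.7, 227, 696 and 190 at 2 years, with no overlap. Its change was 6.4 ± 1.15 (SE), adjusted p = 0.0473. Leaving out 1 library ended the call of Igkv4-55 for 1-year replicate 2, 3 or 5 and 2-year replicate 2 or 4, and that of Ighv14-3 for every library but 1-year replicate 1 and 2-year replicate 1. Their closest relatives stayed low: Igkv4-68 reached at most 50.6 and Ighv14-1 at most 3.11 in any of the 4 libraries at 2 years. A further segment of the Ighv14 family, Ighv14-2, was listed at 0 in all 5 libraries at 1 year. It stood at 2.07, 1618, 4.78 and 1392 at 2 years and was not called (limma adjusted p = 0.199). In 2-year replicates 2 and 4 it was thus far above Ighv14-3. Whether reads of Ighv14-2 were counted on Ighv14-3 was not tested.

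In the wild-type libraries immunoglobulin RNA as a whole was higher at 2 years. The values of all V segments summed to 5622, 1800, 2195, 136 and 2614 normalized counts at 1 year and to 16983, 8043, 8915 and 39461 at 2 years, so each 2-year library lay above every 1-year library. At 2 months the sums ran from 69.8 to 8114. In IL1R1 KO they were 350, 70.3, 9526 and 55.7 at 1 year and 245, 2054, 3646, 271 and 12625 at 2 years, and these groups overlapped. Of 54 V segments tested, 44 had an estimate above 0 (50.2% of all genes did), with a median of 1.99. At an unadjusted p under 0.05, 16 were higher (2.27% of all genes) and none was lower. These 54 are the part of 222 V segments that passed the filter on values, and libraries rich in V segments help decide which pass. The counts are therefore partly set by the filter and add no support to the sums, which hold all 222. All 10 tested constant segments had an estimate above 0, with a median of 3.00. In IL1R1 KO the medians were 0.24 for V segments and 1.86 for constant segments. There, 5 V segments and 1 constant segment were higher at an unadjusted p under 0.05 (4.16% of all genes). Ighm, the constant part of the mu heavy chain, had 6732, 3541, 4790, 186 and 4278 at 1 year and 24784, 12148, 7372 and 76308 at 2 years without overlap, and its change of 3.04 ± 1.71 (SE) was not called. Of 13 T cell receptor V segments tested, 6 had an estimate above 0 and none reached an unadjusted p under 0.05.

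The 2-year libraries differed in how many segments they held and in which segment led. Segments with at least 100 normalized counts numbered 39, 6, 4 and 29 in the 4 libraries at 2 years, and 9, 5, 4, 0 and 4 at 1 year. In replicate 3 at 2 years a single segment, Igkv6-20, made up 65.9% of the V sum, and in replicate 2 Igkv4-55 made up 51.3%. In replicates 1 and 4 the leading segment took 11.5% and 8.23%. Replicates 1 and 4 shared 20 such segments, of 39 and of 29, and replicate 2 shared 4 of its 6 with replicate 4. Of the 17 genes of the B and plasma cell marker list, 14 had an estimate above 0 (50.2% of all genes), and none was called. At an unadjusted p under 0.05, 2 were higher (2.27% of all genes). The list includes the constant segments Ighm, Igkc and Iglc1, so it in part repeats the immunoglobulin RNA above. Their median was 1.51 in wild type and 1.84 in IL1R1 KO, where 5 were higher at that p (4.16% of all genes). Mzb1, a chaperone of antibody-secreting cells, had 0 to 30.4 at 1 year and 23.0 to 127 at 2 years, while Pax5, the factor that fixes B cell identity, was at or below 25.6 in all 9 libraries.

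The genes known to mark aged HSCs had overlapping levels at 2 years and at 1 year. Of 32 genes of the ageing list, none was called, 1 was higher (2.27% of all genes) and 4 were lower (2.09%) at an unadjusted p under 0.05, and 9 had an estimate above 0. Their median change was -0.06, beside 0.00 over all genes. The 95% interval lay within 1 log2 unit of 0 for 31 of the 32 and within 0.5 for 14. Over genes with a mean of at least 500 the shares within 1 and within 0.5 were 97.6% and 71.8%. The mean log2 level of the list was 11.97, 12.01, 12.15, 12.06 and 12.13 in the 1-year libraries and 11.82, 11.98, 12.06 and 12.07 in the 2-year libraries. At 2 months it was 10.51 to 10.58. The 2 older groups thus overlapped, and the 2-month libraries lay below both.

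Selp encodes P-selectin, through which activated platelets and vessel walls hold white blood cells. It had 12815, 12986, 16603, 15613 and 17863 normalized counts at 1 year and 13203, 14874, 15263 and 18732 at 2 years, after 1968 to 3275 at 2 months. Of the 4 values at 2 years, 3 lay within the 1-year range, and the change was 0.03 (95% interval -0.29 to 0.35). Nupr1, a small stress-induced chromatin protein, had 6306, 6879, 6354, 6477 and 6703 at 1 year and 6180, 7643, 7535 and 8526 at 2 years. Its 2-year libraries were more spread and overlapped the 1-year ones, with a change of 0.18 (-0.17 to 0.54). Clu, the secreted chaperone clusterin, changed by -0.14 (-0.56 to 0.29) and ranged from 7481 to 11259 at 1 year and from 6928 to 10305 at 2 years.

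Aldh1a1, an aldehyde dehydrogenase that makes retinoic acid, had 9831, 12011, 11825, 10431 and 11333 at 1 year and 8955, 10757, 9438 and 9654 at 2 years. Most 2-year values lay below the 1-year range, 1 lay inside it, and the change was -0.19 (-0.50 to 0.12). Vwf, von Willebrand factor, marks platelet-primed HSCs and ranged from 8863 to 10659 at 1 year and from 8501 to 10499 at 2 years, a change of -0.05 (-0.36 to 0.26). Gpr183, a receptor for oxysterols, had 2360, 2230, 2407, 2401 and 2009 at 1 year and 1571, 2508, 2403 and 2466 at 2 years. Apart from the low replicate 1 at 2 years its values overlapped, and the change was -0.05 (-0.56 to 0.46).

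**Figure D2:**
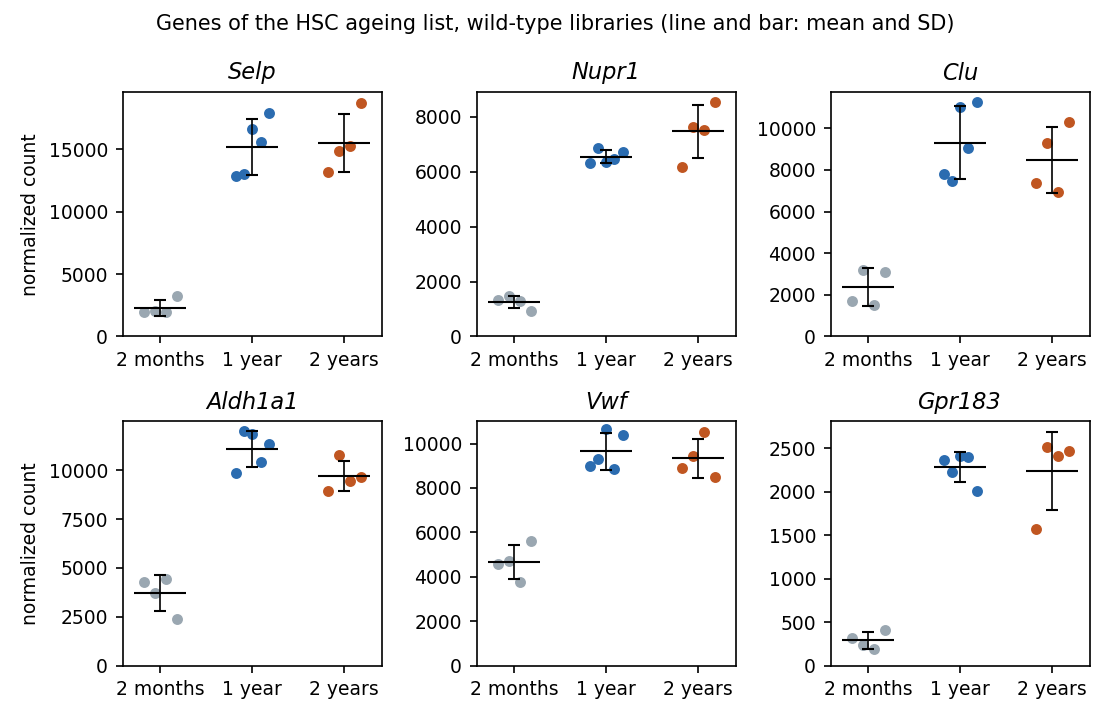
Normalized counts (vertical axes, starting at 0) of 6 genes of the ageing list in wild-type libraries at 2 months, 1 year and 2 years; each dot is a library, and lines and bars are mean and SD. For all 6 genes the 2-month libraries lie below the other 2 ages, whose dots overlap.

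Single members lay nearer to a difference. Sult1a1, a sulfotransferase, had 13537, 12487, 11664, 12726 and 12244 at 1 year and 17479, 13462, 16091 and 18002 at 2 years. All but 1 of the 2-year libraries lay above the 1-year range, and the change of 0.37 ± 0.10 (SE) had an unadjusted p of 0.00127 and a limma adjusted p of 0.897. The 4 members on the lower side were Cldn12 at -0.42, the netrin receptor gene Neo1 at -0.48, Fhl1 at -0.32 and Slamf1, which encodes the HSC marker CD150, at -0.25. Their count of 4 became 1 without 2-year replicate 1 or 3 and 2 without 1-year replicate 3, 4 or 5. Mllt3, a chromatin reader that maintains HSCs, was the 1 member whose groups did not overlap, with 10565 to 11015 at 1 year and 8891 to 10233 at 2 years and a change of -0.17 (-0.35 to 0.01).

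The same list moved in the mice labelled IL1R1 KO over the same interval. There, 8 of the 32 members rose (limma adjusted p under 0.05), beside 20 genes called higher among all tested (0.118%), and 21 were higher at an unadjusted p under 0.05 (4.16% of all genes), with a median of 0.41. The list level was 11.54 to 11.65 at 1 year and 12 to 12.22 at 2 years in these libraries, so they started below the wild-type libraries of that age and ended beside the older ones. Taken as a difference between the 2 late changes, none of the 32 was called. However, 19 had a smaller change in wild type at an unadjusted p under 0.05, where 604 of all genes did (3.56%), and none had a larger one, with a median difference of -0.57. This count was 15 to 23 in the 36 alternatives run. The 8 called in IL1R1 KO became 4 without 1-year replicate 4 or 2-year replicate 5, and 5 without 1-year replicate 2 or 2-year replicate 2 or 3.

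In IL1R1 KO libraries Gpr183 rose from a mean of 1431 ± 456 (SD, n = 4) to one of 3955 ± 437 (SD, n = 5), by 1.52 ± 0.25 (SE, limma adjusted p = 0.00332). The wild-type change was smaller by 1.57 ± 0.35 (SE), adjusted p = 0.178. Selp went from 9937 ± 1494 (SD, n = 4) to 17105 ± 2080 (SD, n = 5) there, a rise of 0.79 ± 0.16 (SE, limma adjusted p = 0.0207), and its difference from wild type, -0.75 ± 0.22 (SE), had an adjusted p of 0.414. Enpp5, a membrane protein of the nucleotide phosphodiesterase family, had the smallest p of the list in the difference, -0.70 ± 0.15 (SE, limma adjusted p = 0.117). One of the 1-year IL1R1 KO libraries, replicate 1, carries 2 months in its age label and 1 year in its other labels, and without it the list had 8 called members and again 19 smaller changes in wild type.

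**Figure D3:**
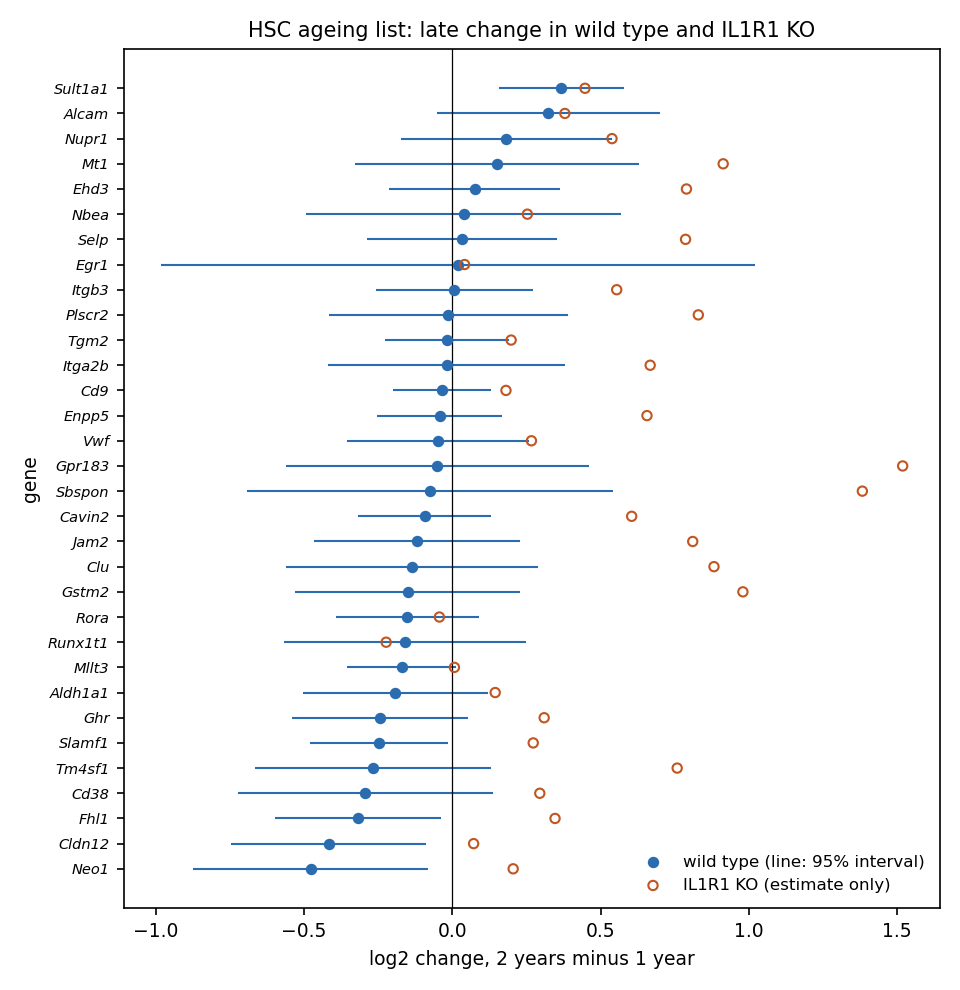
Change from 1 year to 2 years (horizontal axis, log2) of the 32 genes of the ageing list (vertical axis), with filled dots and 95% intervals for wild type and open dots for IL1R1 KO. The filled dots straddle 0 with a median of -0.06, and most open dots lie to their right, with a median of 0.41.

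Among all tested genes 3 were called as different in their late change between the genotypes (0.0177% of 16958, limma). Trim47, a ubiquitin ligase, had 23482, 25458, 26978, 27992 and 31746 at 1 year and 21350, 26100, 19642 and 27437 at 2 years in wild type, groups that overlapped. In IL1R1 KO it went from 16914 ± 1038 (SD, n = 4) to 26214 ± 2248 (SD, n = 5), and the difference of changes was -0.84 ± 0.13 (SE, limma adjusted p = 0.0143). Hspa1a, an inducible heat shock chaperone, had 102 to 707 and then 704 to 5168 in wild type and fell by 5.26 in IL1R1 KO (difference 7.48 ± 1.19, SE, adjusted p = 0.0191). Its 1-year IL1R1 KO libraries averaged 34644 ± 25784 (SD, n = 4), and reads of its near-identical copy Hspa1b can be split with it. Trim47 and Hspa1a were each called in 31 of 36 alternatives. Without 1-year IL1R1 KO replicate 2, or without replicate 4, neither of them was called.

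Genes of HSC identity and quiescence had narrow intervals around 0. Of 24, none was called, and the median was -0.07. At an unadjusted p under 0.05, 2 were higher (2.27% of all genes) and 1 was lower (2.09%). The 95% interval lay within 0.5 of 0 for 20 of them. That share was 39.7% over all genes and 71.8% over genes with a mean of at least 500. Meis1, a homeobox factor of HSCs, ranged from 17639 to 18965 at 1 year and from 16909 to 18784 at 2 years, a change of -0.01 (-0.13 to 0.10). Kit, the stem cell factor receptor, had 27017, 28971, 21888, 22289 and 26338 at 1 year and 18670, 22338, 21775 and 26307 at 2 years, overlapping groups with a change of -0.19 (-0.41 to 0.03). Ly6a, which encodes the sorting antigen Sca-1, ranged from 4573 to 5900 and then from 5556 to 7207, a change of 0.25 (0.02 to 0.47), limma adjusted p of 1.

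Cd48 is absent from the most primitive HSCs by the usual sort. It had 56.0, 19.0, 35.6, 23.4 and 12.4 at 1 year and 154, 42.1, 92.4 and 170 at 2 years, with replicate 2 inside the 1-year range, and its change of 1.93 ± 0.84 (SE) was not called. Flt3, a receptor of lymphoid-primed progenitors, had 685, 308, 321, 385 and 284 at 1 year and 1207, 391, 266 and 317 at 2 years. Only replicate 1 at 2 years was high, and the change was 0.25 (-0.44 to 0.95). Among 20 lymphoid priming genes 13 had an estimate above 0 (50.2% of all genes), and 2 were higher at an unadjusted p under 0.05 (2.27% of all genes). These 2, Ikzf3 and Ly6d, had at most 83.5 and 203 in any of the 9 libraries. Of 20 platelet and megakaryocyte genes 10 had an estimate above 0, with a median of -0.01.

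Interferon-stimulated genes leaned upward without a call. Of 30 genes of the type I interferon list, 27 had an estimate above 0 (50.2% of all genes), 10 were higher at an unadjusted p under 0.05 (2.27% of all genes) and none was lower, with a median of 0.28 beside 0.00 over all genes. The list level was 9.97, 9.77, 9.90, 9.92 and 10.03 in the 1-year libraries and 10.20, 10.04, 10.22 and 10.48 in the 2-year libraries. The lowest 2-year library lay just above the highest 1-year library, and the 2-month libraries, at 9.89 to 10.23, overlapped both. In IL1R1 KO the median was 0.12, 21 of 30 had an estimate above 0, and 4 were higher at an unadjusted p under 0.05 (4.16% of all genes). Between the genotypes no member was called as different in its late change, and 1 had a larger change in wild type at an unadjusted p under 0.05. The wild-type count depended on the libraries: it was 2 without 2-year replicate 4, 4 without 1-year replicate 2, 5 without 2-year replicate 3, 2 without the 2 deepest 1-year libraries, and 4 with depth as a covariate.

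The promoters of 4 list members are shown because these are the members with an unadjusted p under 0.05 whose promoters hold the letters of the interferon-stimulated response element, the sequence bound by the complex that holds Stat2 and Irf9. The letters searched were GAAANNGAA on both strands, from 250 bases before to 50 bases after the start site, where N is any base, and they are in capitals (a match on the other strand is printed as its complement, and neighbouring matches can share letters). The sequences are RefSeq's on GRCm38.p6, each printed along its gene's own strand: Ifi44 at chr3:151749861-151749980 (minus strand), Ifit1 at chr19:34640745-34640864 (plus), Ifit3 at chr19:34583367-34583486 (plus) and Stat2 at chr10:128270248-128270367 (plus).
Ifi44: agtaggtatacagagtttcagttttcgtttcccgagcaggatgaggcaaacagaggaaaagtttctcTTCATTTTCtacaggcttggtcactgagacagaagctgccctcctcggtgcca
Ifit1: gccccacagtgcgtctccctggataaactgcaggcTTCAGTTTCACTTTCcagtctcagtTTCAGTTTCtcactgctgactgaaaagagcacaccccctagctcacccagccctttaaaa
Ifit3: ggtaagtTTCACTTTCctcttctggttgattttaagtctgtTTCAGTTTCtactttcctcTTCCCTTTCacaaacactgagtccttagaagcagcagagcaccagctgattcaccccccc
Stat2: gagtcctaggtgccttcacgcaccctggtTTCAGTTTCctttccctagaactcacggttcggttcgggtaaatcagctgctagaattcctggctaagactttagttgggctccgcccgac

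Of the 30 list genes 20 matched the promoter table, with 23 promoters, and 14 of these promoters (60.9%) held the letters, against 8.56% of all 32851 promoters. A match is a description of the sequence and not a measured site. Ifit1 and Ifit3 held 3 matches each within the shown stretch, and Ifi44 and Stat2 held 1.

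Ifi44, an interferon-induced protein of the cytoplasm, had 2673, 2355, 2543, 2220 and 2545 at 1 year and 2881, 2702, 3420 and 3767 at 2 years. The groups did not overlap, and the change of 0.36 ± 0.10 (SE) had an unadjusted p of 0.00178 and a limma adjusted p of 0.897. Usp18, the protease that takes the ubiquitin-like Isg15 off proteins, had 689, 555, 657, 670 and 665 and then 815, 702, 938 and 824, again without overlap, a change of 0.34 ± 0.13 (SE). Bst2, the membrane protein tetherin that holds viruses to the cell, had 1804 to 2081 and then 2177 to 2436, and Dhx58, a helper of RNA sensing, 1831 to 1954 and then 2008 to 2189. These 4 were the list's members without overlap, where 0.796% of all genes were higher without it.

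Ifit3, an RNA-binding effector, had 147, 111, 207, 229 and 151 at 1 year and 248, 229, 188 and 350 at 2 years, overlapping groups with a change of 0.60 (0.06 to 1.13). Irf7, the factor that amplifies interferon production, had 1184, 796, 1575, 1187 and 1129 and then 1727, 1225, 1603 and 2340. It overlapped between 1225 and 1575, with a change of 0.55 (0.15 to 0.95). The sensor genes Ifih1 and Ddx58 were nearly level, at -0.06 and 0.03.

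Interferon gamma and antigen presentation genes moved less. Of 30, none was called, 24 had an estimate above 0 (50.2% of all genes), and the median was 0.07. At an unadjusted p under 0.05, 1 was higher (the GTPase gene Irgm1, 0.28), where 2.27% of all genes were. H2-Ab1, a chain of MHC class II, had 7412, 5792, 12575, 9649 and 9545 at 1 year and 9631, 8833, 8572 and 8265 at 2 years. The 2-year libraries lay within the 1-year range, with a change of 0.02 (-0.46 to 0.50), after 2824 to 5596 at 2 months.

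**Figure D4:**
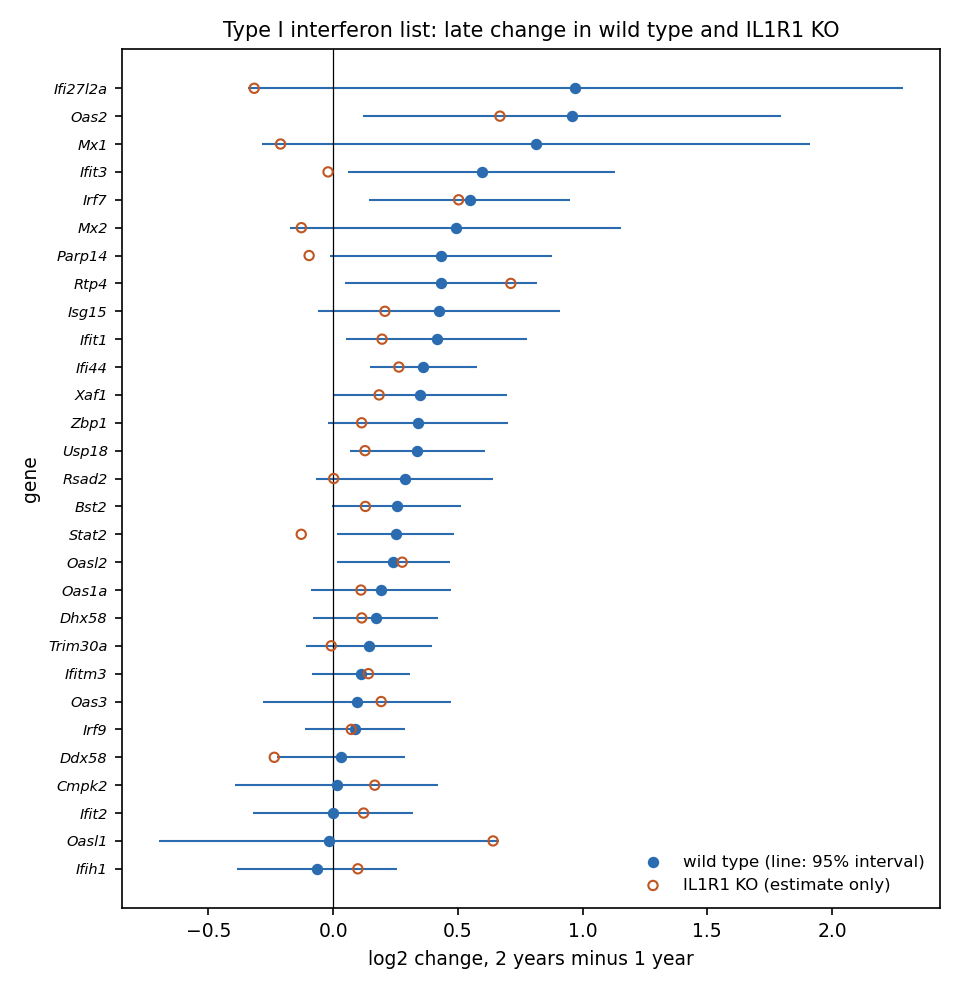
Change from 1 year to 2 years (horizontal axis, log2) of genes of the type I interferon list (vertical axis, 29 of its 30 genes), with filled dots and 95% intervals for wild type and open dots for IL1R1 KO. In wild type most dots lie to the right of 0, and the median of the whole list was 0.28.

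None of the signalling genes around interleukin-1 was called. Il1r1, the interleukin-1 receptor gene, had 243, 267, 282, 187 and 180 normalized counts at 1 year and 192, 311, 383 and 216 at 2 years, overlapping groups with a change of 0.22 (-0.32 to 0.75). Its transcript was also measured in the libraries labelled IL1R1 KO, at 284 at 1 year and 322 at 2 years on average, so its count does not check that label. Of 22 genes of the interleukin-1 and TNF list 13 had an estimate above 0 and the median was 0.02. The mean log2 level of this list was 8.42 to 8.78 at 2 years against 8.06 to 8.40 at 1 year, a narrow gap without overlap. That mean includes the low-count gene Il1rl1, whose change of 3.16 was the largest of the list. The mean change of the 22 genes was 0.36 and their median 0.02, so the gap does not show an even rise across the list. How much of the gap comes from Il1rl1 was not tested. The adaptor Myd88 changed by 0.02 (-0.21 to 0.24), the kinase gene Irak4 by -0.02 (-0.34 to 0.30) and the accessory receptor Il1rap by -0.06 (-0.54 to 0.42). Il1rl1, the interleukin-33 receptor, had 14.6, 2.71, 3.16, 2.42 and 0.56 at 1 year and 30.5, 34.0, 23.6 and 71.0 at 2 years. Its groups did not overlap, and the change of 3.16 ± 0.69 (SE) had a limma adjusted p of 0.217. It was called in only 2 of 27 alternatives, with array quality weights (limma adjusted p = 0.0157) and without 1-year replicate 1 (0.0346). Of 26 NF-kB genes 2 were higher at an unadjusted p under 0.05 (2.27% of all genes), the chemokine Cxcl2 and Tnf, both at low counts of at most 83.4.

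Other genes with small p-values are given here after their values were seen. Pdk1, a mitochondrial kinase that inhibits pyruvate dehydrogenase, had 4207, 4918, 5479, 4675 and 3819 at 1 year and 2969, 3422, 2340 and 2254 at 2 years, with 2675 to 3720 at 2 months. Its groups did not overlap, and the change of -0.76 ± 0.15 (SE) had a limma adjusted p of 0.186, the smallest of any gene not called. Cdk5rap1, a mitochondrial tRNA-modifying enzyme, had 962, 468, 744, 790 and 432 at 1 year and 1678, 1849, 1639 and 1074 at 2 years, also without overlap (1.24 ± 0.26, SE, adjusted p = 0.186). In IL1R1 KO it stood at -0.63, and the difference of 1.87 ± 0.36 (SE) had an adjusted p of 0.074. Calcrl, the receptor chain for adrenomedullin and CGRP, ranged from 2469 to 3244 and then from 1496 to 2215, a change of -0.62 ± 0.15 (SE, limma adjusted p = 0.475).

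Of 24 mitosis genes 23 had an estimate above 0 (50.2% of all genes), 3 were higher at an unadjusted p under 0.05 (2.27% of all genes), none was called, and the median was 0.20. The letters TTTGAA (either strand), which hold the core of the element read by the complex that controls mitotic genes, stood in 77.3% of the 22 promoters matched to this list and in 17.9% of all promoters. Birc5, the mitotic regulator survivin, had 810, 765, 783, 656 and 655 at 1 year and 1196, 946, 771 and 1118 at 2 years, high in 3 of 4 libraries, with a change of 0.44 (0.13 to 0.75). Mki67, a protein of cycling cells, had 1911, 1587, 1602, 1294 and 1643 and then 2448, 1337, 2312 and 2036, overlapping groups with a change of 0.31 ± 0.15 (SE). The list level ran from 9.78 to 9.97 at 1 year and from 9.63 in replicate 3 to 10.31 at 2 years, and without that replicate 9 members were higher at an unadjusted p under 0.05. The count was 7 with array quality weights, 5 without 1-year replicate 1 or 2-year replicate 2, and 1 without the 2 deepest 1-year libraries. The 2.27% comes from the main fit (all 30 libraries, no covariate, no weights), and the share of all genes under each alternative is not given here. DNA replication genes had a median of 0.03, with none of 24 at an unadjusted p under 0.05. Cdkn1a, which encodes the cell cycle inhibitor p21, varied from 820 to 3853 at 1 year and from 909 to 3432 at 2 years, and Cdkn2c, the inhibitor p18, changed by 0.15 (-0.38 to 0.68).

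All 50 nuclear genes of oxidative phosphorylation and all 35 cytosolic ribosomal protein genes had 95% intervals within 1 log2 unit of 0, with medians of 0.07 and 0.08. Of genes with a mean of at least 500, 97.6% had such intervals. Dnmt3a, a DNA methyltransferase, had 3237, 4690, 4432, 4336 and 4174 at 1 year and 3856, 3445, 3999 and 3494 at 2 years, a change of -0.17 (-0.46 to 0.13). Tet2, which oxidizes methylated DNA, had 2118, 784, 850, 922 and 872 and then 1343, 825, 2006 and 733, with 1 high library at 1 year and 2 at 2 years and a change of 0.14 (-0.36 to 0.64). Socs2, a brake on cytokine signalling, changed by -0.08 (-0.67 to 0.51). Of 22 sterol synthesis genes 2 were lower without overlap (0.814% of all genes), Dhcr7 at -0.56 and Stard4 at -0.30, and neither was called. Immediate early genes, which respond to handling within minutes, had a median of 0.01 and a wide scatter: Fos had 18674, 122962, 127495, 119381 and 9057 at 1 year and 84892, 6004, 111793 and 52309 at 2 years.

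Markers of other blood cells were higher at 2 years in estimate, without a call. All 13 neutrophil markers had an estimate above 0, 6 of them at an unadjusted p under 0.05 (2.27% of all genes were higher at that p), with a median of 2.85. Their level was 5.87, 2.20, 3.05, 3.81 and 5.46 in the 1-year libraries and 7, 3.70, 10.36 and 6.83 in the 2-year libraries, with 3 of 4 above the 1-year range, and 7.23 to 10.58 at 2 months. S100a8, an abundant neutrophil protein, had 682, 14.8, 38.7, 222 and 243 at 1 year and 989, 208, 12535 and 2104 at 2 years, and Ly6g, the marker that defines mouse neutrophils, at most 146 in the 9 libraries. Without 2-year replicate 3 the count was 2 of 13 and the median 1.84. The count was 0 with depth as a covariate and 1 without the 2 deepest 1-year libraries. In IL1R1 KO the median was 3.35 for neutrophil markers, -0.04 for primary granule genes, 0.42 for erythroid genes and -1.53 for mast cell and basophil markers.

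All 14 primary granule genes of early myeloid cells had an estimate above 0, 3 at an unadjusted p under 0.05 (2.27% of all genes were higher at that p), and the median was 2.38. That count was 0 without 1-year replicate 2, 1 without 1-year replicate 5 or 2-year replicate 1 or 4, and 6 without 1-year replicate 1. It was 0 with depth as a covariate or without the 2 deepest 1-year libraries. Mpo, myeloperoxidase, had 2045, 20.5, 588, 1832 and 35.3 at 1 year and 11719, 2630, 3529 and 16541 at 2 years without overlap, yet its change of 4.54 (-0.01 to 9.10) was not called. Of 15 erythroid genes 13 had an estimate above 0 and 7 were higher at an unadjusted p under 0.05 (2.27% of all genes), with a median of 1.17. The count was 3 without 2-year replicate 1, 4 without 1-year replicate 2 or 2-year replicate 4, and 10 without 2-year replicate 2. It was 3 with depth as a covariate or without the 2 deepest 1-year libraries. The erythroid level was lowest in replicate 2 at 1 year (6.75) and at 2 years (7.81). Monocyte markers had a median of 1.07 with 1 of 14 higher at an unadjusted p under 0.05 (2.27% of all genes), and mast cell and basophil markers 2.31 with 0 of 8. T and NK cell markers and endothelial and stromal markers had medians of 0.03 and -0.02. The part of these cells' RNA in the differences above was not tested, apart from the fits with a list level as a covariate. In these the interferon count of 10 became 3 with the neutrophil level, 6 with the erythroid level and 6 with the B and plasma cell level. With the neutrophil level the count of higher members was 0 for primary granule genes, 0 for B and plasma cell markers and 3 for erythroid genes.

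**Figure D5:**
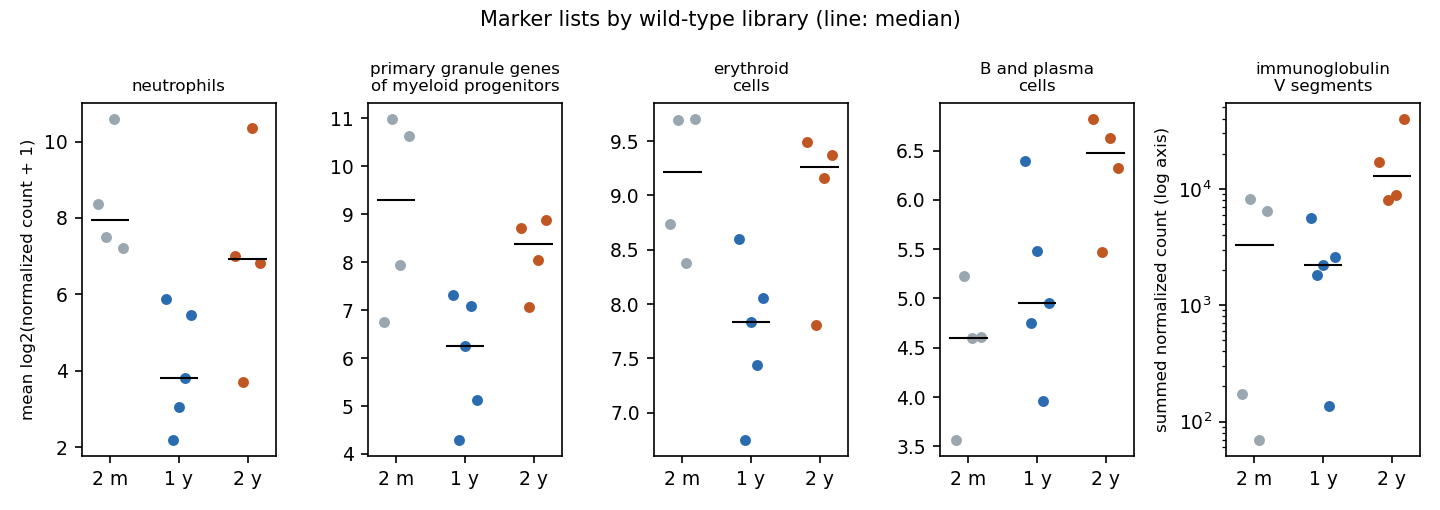
Levels of 4 marker lists (mean log2 of normalized count + 1) and the summed normalized count of immunoglobulin V segments (log axis) in wild-type libraries at 2 months, 1 year and 2 years; each dot is a library and each line a group median. The V segment sums at 2 years, 8043 to 39461, lie above all 1-year libraries, and the other lists overlap between 1 year and 2 years.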

How the data were processed

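The authors deposited 1 signal value per gene and library, taken here as counts divided by a library factor. The submitters' processing notes list DESeq2 1.26.0, Salmon 1.2.0.0, cutadapt 2.10 and FastQC 0.11.9 as tools and GRCm38 (mm10) as build, and do not say how transcripts were summed. The values are not whole counts, so no count model was used. Depth was estimated as a library's sum over its most frequent value below 2, taken as the worth of 1 read. Of 35727 genes, 35422 had a symbol, and positions came from GENCODE M21 on GRCm38.

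Values entered as log2(normalized count + 1), which understates changes of low genes. Genes with at least 10 in at least 3 of all 30 libraries were kept (16958). In R 4.3.3, limma 3.58.1 estimated 1 mean per group over the 30 libraries (empirical Bayes, trend, robust). Tests were two-sided, with Benjamini-Hochberg adjustment over all tested genes. The fit was tested on simulated data. Figures were drawn with matplotlib 3.10.9 (Python 3.11.15). The 28 gene lists were written from general knowledge. The members and lists were chosen with earlier results of these data known. The rule for named genes took the 12 largest rises and falls among called genes that did not overlap and had a mean of at least 50 (receptor segments and unnamed genes left out), up to 4 called genes per list, and 20 genes of interest. As it found no called gene, those 20 remained, and others are named as members of a list or after their values were seen. Some genes counted in the lists and calls are not reported here by name. Groups came from the title labels, and all columns matched a sample.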

Additional observations from a re-analysis of the deposited data

Results flagged for a closer look

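Of 44 groups of wild-type values tested, each a gene at an age, 2 held a library far from the others. That is about the share of 1 in 20 that chance gives. Socs2, a brake on cytokine signalling, stood at 1111 normalized counts in 2-year replicate 1 and at 594 to 651 in the other 2-year libraries. Tet2, which oxidizes methylated DNA, stood at 2118 in 1-year replicate 1 and at 784 to 922 in the other 1-year libraries. The late change differed between wild type and IL1R1 KO, by the interaction term in limma, for Trim47 (-0.84) and Hspa1a (7.48).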

How the results depend on the processing

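The count of genes called between 1 year and 2 years in wild type was 2. It was 0 with a pseudocount of 0.5, a mean of at least 50, no trend, the erythroid level or depth as a covariate, the 2 deepest 1-year libraries left out, or receptor segments left out. It was 1 with only libraries of the same genotypes, upper quartile scaling, library sum scaling, or the B and plasma cell or immediate early level as a covariate, and 9 with array quality weights. Leaving out 1 library gave 0 to 7, with 0 without 1-year replicate 2, 3 or 5 or 2-year replicate 4 and 7 without 1-year replicate 1. Igkv4-55 was called in 12 and Ighv14-3 in 7 of the 26 alternatives that measured it. In IL1R1 KO the count of 30 became 74 with only the groups compared, 83 with array quality weights and 17 with the B and plasma cell covariate, and 15 to 45 without 1 library. The count of 3 differences between genotypes became 6 with a pseudocount of 5, 14 with only the groups compared, 19 with array quality weights, 1 with no trend and 0 with the depth covariate, and 0 to 8 without 1 library. With the replicate number as a block these 3 counts were 7, 4 and 0. Same-numbered wild-type libraries correlated at -0.05 to 0.16 in their deviations. The 2-year library that matched best had the same number for 1-year replicates 1 and 2, and another number for replicates 3 and 4. Whether same-numbered libraries were handled together was not tested. None of the 20 named genes was called in any of the 27 alternatives. Shares of all genes printed beside list counts come from the main fit. They can differ under an alternative, so list counts under alternatives are not set against a share of their own. Of the list medians under the alternatives, 745 moved by less than the spread between libraries and 11 by more. Alternatives without the deepest libraries and without receptor segments were chosen after seeing the data.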

Other observations

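The V segment profile of 1-year wild-type replicate 1 reappeared at a lower level in another library. Its leading segments were Igkv10-96 at 823 normalized counts, Igkv3-2 at 814, Igkv1-133 at 750 and Igkv12-44 at 630. In 1-year IL1R1 KO replicate 1 the same segments led in the same order, at 35.2, 32, 29.6 and 28.5. In 1-year germ-free replicate 1 they stood at 35.6, 23.3, 33.9 and 33.9, as ranks 8, 14, 10 and 9.

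Y-linked genes were present in all 9 libraries of the 2 older wild-type groups. Uty ranged from 1032 to 1387 at 1 year and from 960 to 1410 at 2 years, and Ddx3y from 1650 to 2751 and from 2087 to 3252. Eif2s3y, which encodes a subunit of a translation factor, ranged from 2153 to 2623 at 1 year and from 970 to 2172 at 2 years, a change of -0.44 that was not called by limma.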
